A study of Mus musculus with 24 samples.

Results

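The 44 genes described here encode the proteins that carry a cell from G2 through mitosis: B-type cyclins and Cdk1, mitotic kinases, the spindle checkpoint, kinetochore and centromere proteins, the chromosomal passenger complex, spindle motors, cytokinesis proteins, the regulators of anaphase, and condensin with topoisomerase II. They were chosen by name, with earlier results of these data known, and every one of the 44 had at least 1 probe on the arrays. The arrays carried 30342 distinct gene names in all once probes were named through RefSeq accessions where possible. RNA came from DA1-3B, a mouse leukaemia line from the C3H eOuJ strain that carries the Bcr-Abl oncogene, and it was hybridised in 1 colour to Agilent arrays. The cells had been transfected with plasmids for p65/RelA, an NF-kB subunit that carries a transactivation domain. Of the 6 groups of 4 arrays, 1 received the D361E mutant, described as non-cleavable, 1 the fragment p1-361 from the N-terminus, 1 the fragment p363-549 from the C-terminus, 1 both fragments together, 1 full-length p65 (WT), and 1 the void plasmid (VOID). The comparisons ask which genes each form of p65 regulates, and how far the fragments differ from the whole protein. All groups carry Bcr-Abl and the cells' own p65. Whether the 4 samples of a group grew as separate cultures is not stated, and p-values then measure no more than the spread among these samples. The labels name neither the promoter of the plasmids nor the time of harvest.

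Entry into mitosis is driven by Cdk1 bound to cyclin B, which the Cdc25 phosphatases switch on by removing inhibitory phosphates. Kinetochores then attach chromosomes to spindle microtubules, the spindle checkpoint holds back the anaphase-promoting complex until every chromosome is attached, and separase cuts the cohesin that joins sister chromatids. Transcripts of these genes are scarce in G1 and peak in G2 and mitosis, under the MuvB complex with B-Myb and FoxM1, which acts through the cell cycle genes homology region (core TTTGAA), and NF-Y, which binds CCAAT. In a bulk sample a larger share of cells in G2 or mitosis and more RNA per such cell cannot be told apart.

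The promoters are shown because many, though not all, of the genes hold these elements there. RefSeq promoter windows (250 bases before to 50 after the start of the gene, build GRCm38.p6) were matched for 37 members, and not for Aurkb, Cdc25c, Incenp, Kif20a, Smc4, Spc24 and Tpx2. The windows of 4 members that passed the test below, and of Nuf2, which had the largest difference, follow 5′ to 3′ on the strand of the gene. Capitals mark CCAAT or TTTGAA read on either strand (ATTGG and TTCAAA on the other strand).
Ndc80 promoter, chr17:71526808-71527107, minus strand: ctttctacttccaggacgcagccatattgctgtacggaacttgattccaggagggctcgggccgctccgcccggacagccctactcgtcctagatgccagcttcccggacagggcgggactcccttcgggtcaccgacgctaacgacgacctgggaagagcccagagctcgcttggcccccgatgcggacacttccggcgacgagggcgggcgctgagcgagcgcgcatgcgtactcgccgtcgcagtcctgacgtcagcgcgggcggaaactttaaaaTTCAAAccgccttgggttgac
Spc25 promoter, chr2:69206164-69206463, minus strand: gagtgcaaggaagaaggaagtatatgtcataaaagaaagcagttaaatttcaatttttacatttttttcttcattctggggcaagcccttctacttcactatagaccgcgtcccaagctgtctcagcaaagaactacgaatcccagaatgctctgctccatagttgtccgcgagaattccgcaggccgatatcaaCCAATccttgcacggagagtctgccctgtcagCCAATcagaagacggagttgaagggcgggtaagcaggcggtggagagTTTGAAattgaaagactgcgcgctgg
Ect2 promoter, chr3:27153829-27154128, minus strand: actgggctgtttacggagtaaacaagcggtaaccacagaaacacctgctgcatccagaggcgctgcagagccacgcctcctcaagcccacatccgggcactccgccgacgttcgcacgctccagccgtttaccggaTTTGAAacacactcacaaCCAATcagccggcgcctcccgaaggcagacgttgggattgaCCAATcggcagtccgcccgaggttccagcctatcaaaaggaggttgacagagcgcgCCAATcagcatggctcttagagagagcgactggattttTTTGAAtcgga
Ncapg promoter, chr5:45669675-45669974, plus strand: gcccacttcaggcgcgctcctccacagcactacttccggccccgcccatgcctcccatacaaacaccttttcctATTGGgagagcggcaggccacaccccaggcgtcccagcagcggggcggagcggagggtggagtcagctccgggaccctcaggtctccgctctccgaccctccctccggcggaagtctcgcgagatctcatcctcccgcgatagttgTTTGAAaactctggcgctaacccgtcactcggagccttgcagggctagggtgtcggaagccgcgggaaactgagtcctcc
Nuf2 promoter, chr1:169531415-169531714, minus strand: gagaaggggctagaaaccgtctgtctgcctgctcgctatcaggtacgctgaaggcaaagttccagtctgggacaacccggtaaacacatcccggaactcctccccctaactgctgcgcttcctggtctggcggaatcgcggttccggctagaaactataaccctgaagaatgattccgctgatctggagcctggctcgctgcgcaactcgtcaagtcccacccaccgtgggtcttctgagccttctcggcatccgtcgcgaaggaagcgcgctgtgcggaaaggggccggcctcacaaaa

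Ect2 held CCAAT 3 times and TTTGAA 2 times, Spc25 CCAAT 2 times and TTTGAA 1 time, and Ncapg each motif 1 time. Ndc80 held TTTGAA alone, and the Nuf2 window held neither. CCAAT was present in 28 of the 37 windows (75.7%), compared with 37.9% of the 27025 windows of all genes, and TTTGAA in 26 (70.3%), compared with 18.1%. Both motifs together occurred in 23 of the 37 windows (62.2%), compared with 7.12% of all windows. Other genes of G2 and mitosis, listed beside the members, held both in 31.2% of 96 windows. DNA replication genes held CCAAT in 60.5% of 43 windows, but TTTGAA in 11.6%. Of the remaining members, Bub1, Ccnb1, Cdc25b, Cenpe and Nek2 held CCAAT alone, Anln and Kif2c TTTGAA alone, and Birc5, Mad2l1, Ncaph, Nusap1 and Pttg1 neither. A match of letters does not show that a factor is bound there.

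**Figure D1:**
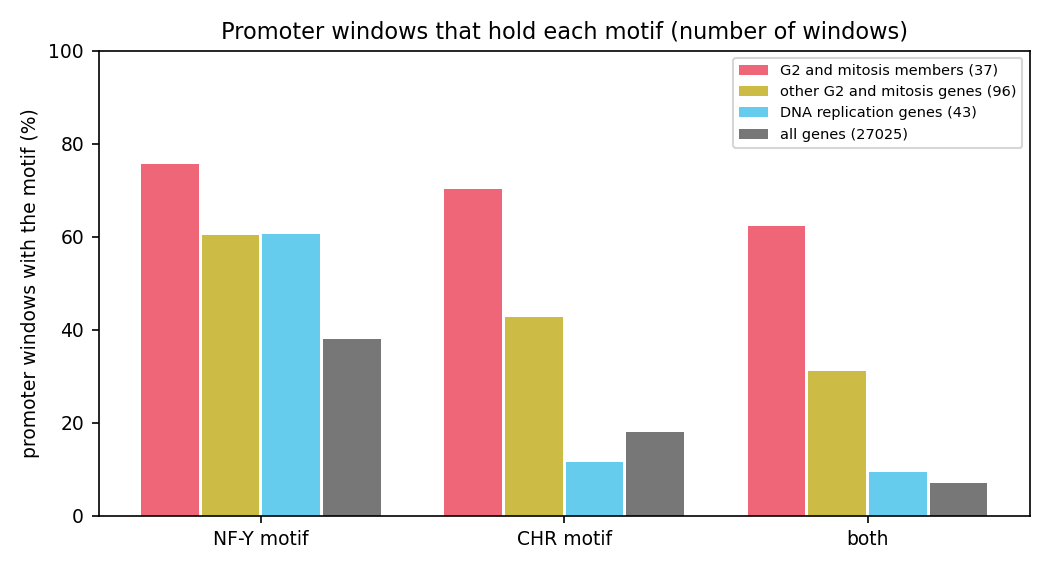
Bars give the share of promoter windows (%, from 0) that hold the NF-Y motif, the core of the cell cycle genes homology region (CHR motif) or both, for 37 members, 96 other G2 and mitosis genes, 43 replication genes and all 27025 genes. The members have the tallest bar in each set, and replication genes have a tall NF-Y bar (60.5%) beside a low CHR bar (11.6%).

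The measure was log2 of the processed signal minus the 75th percentile of the array, so a level of 0 is the signal that 3 in 4 spots do not exceed, and levels are compared only within a gene. That percentile ran from 635.8 to 1214 signal units over the 24 arrays, and 49.4% to 55.5% of spots that are not controls were well above background. For 31 members there was 1 probe, and where there were more the brightest stood for the gene. Aurkb, the kinase of the chromosomal passenger complex, was not well above background on any of the 24 arrays and was not tested, which left 43 members among 15059 genes tested. Of 14 haematopoietic marker genes 12 were above background on all 24 arrays, and Kit, a stem cell factor receptor, on 0 of them. Of 18 markers of other cell types 12 were above background on 0 arrays, and Pecam1, Cd3e and Cd3d, markers of endothelium and T cells, on all 24. Rela was read by 1 probe, which was higher than in VOID by 0.36 to 0.49 (log2) in the 5 plasmid groups. In limma's test WT and D361E did not pass (adjusted p = 0.0795 and 0.127). The difference was 0.43 with p1-361 and 0.49 with p363-549, although 1 probe cannot lie in the coding sequence of both fragments. The probe does not check the labels, because it is not known whether plasmid transcripts carry its target. In 3 arrays, replicate 4 of p1-361, of p363-549 and of both fragments, the pattern over 200 genes resembled another fragment group more than their own. Pearson r with the own group was 0.14, -0.55 and -0.09. Replicate 4 of p1-361 was closest to p363-549 (r = 0.78), that of p363-549 to both fragments (0.97) and that of both fragments to p1-361 (0.71). The cause was not tested. The other 21 arrays were closest to their own group (r from 0.52 to 0.95). All arrays are kept as labelled. Where the calls of members or the sign of their median changed in a comparison without these 3, both results are given. Smaller shifts are not all given, and the correlations within groups were not recomputed without them.

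With both fragments together, every one of the 43 tested members had a higher mean than in VOID. Differences ran from 0.22 for Top2a to 0.86 for Nuf2 on the log2 scale, with a median of 0.41, where the median of all 15059 genes was -0.01 and 7404 of them were positive. Passing the test (limma, Benjamini-Hochberg adjusted p under 0.05 over all genes) were 5 members, Ndc80, Ect2, Ncapg, Cdc25c and Spc25, all higher, and 0 were lower, beside 1.95% of all genes called higher and 2.51% called lower in this comparison. The 4 arrays of cells given both fragments lay above all 4 VOID arrays for 14 members and below them for 0, where 5.56% of all genes lay above. A raw p under 0.05 was reached by 24 of 43 members (55.8%), and by 18.6% of all genes. Members do not vary independently: within groups their deviations from the group mean had a median pairwise r of 0.55 (903 pairs, 24 arrays), against 0.01 for pairs of any genes, so the 43 directions are not 43 separate observations.

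**Figure D2:**
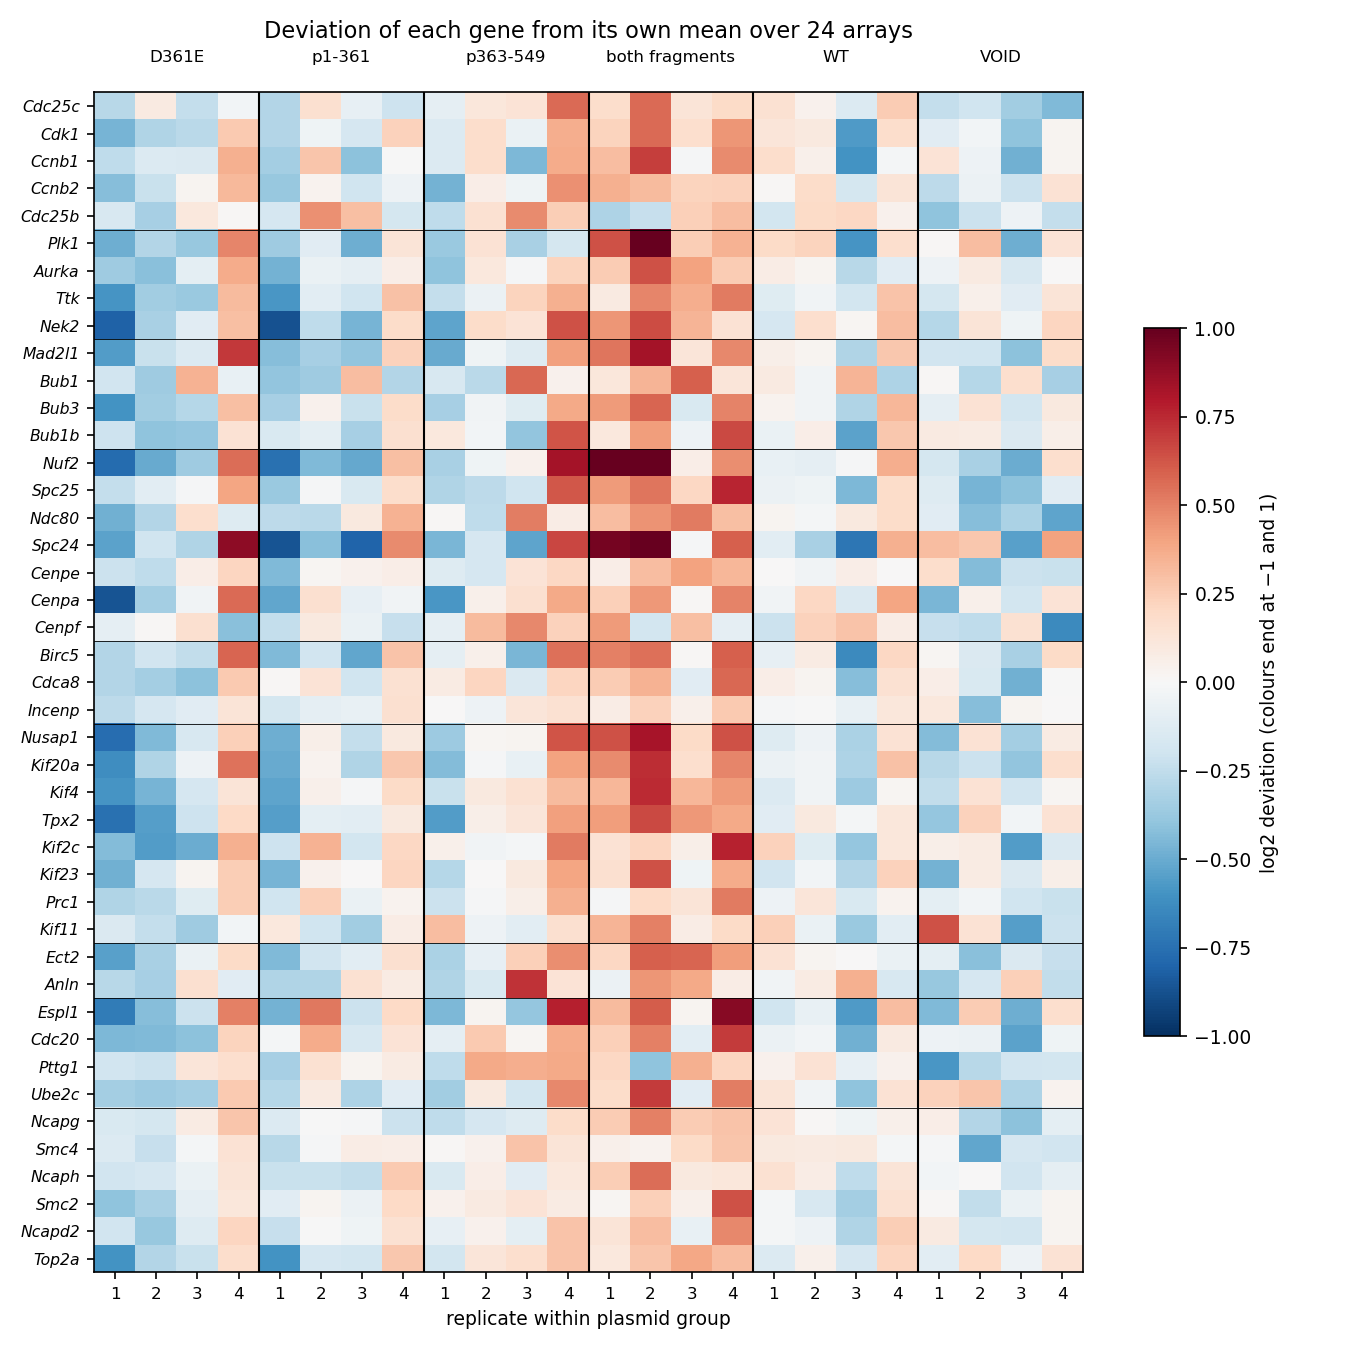
Colour gives the log2 level of each of 43 members (rows, by role) minus its mean over 24 arrays, for each array (columns, numbered within its plasmid group). The block of both fragments is mostly red in all 4 columns, and replicate 4 of D361E, p1-361 and p363-549 is redder than the other arrays of those groups.

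Of the 5 members that act on Cdk1, Cdc25c passed the test and the other 4 did not. Cdc25c is a phosphatase that activates Cdk1 at the entry to mitosis. Its level was -0.95, -0.55, -0.99 and -0.93 with both fragments, against -1.36, -1.32, -1.47 and -1.56 in VOID. All 4 arrays with both fragments were higher than every VOID array, and the difference was 0.57 ± 0.15 (SE, n = 4 arrays per group), a 1.49-fold rise with an adjusted p of 0.0294. In the other groups Cdc25c read -1.40, -1.03, -1.36 and -1.15 in D361E, -1.42, -0.96, -1.20 and -1.33 in p1-361, -1.21, -1.01, -0.99 and -0.56 in p363-549 and -0.97, -1.08, -1.26 and -0.87 in WT. WT and p363-549 lay above VOID on all arrays too, while D361E and p1-361 overlapped it. Cdk1 itself, the kinase that drives mitosis, was at 1.57, 1.91, 1.51 and 1.79 with both fragments, against 1.23, 1.32, 0.95 and 1.37 in VOID. These groups did not overlap either, but the difference of 0.48 ± 0.19 missed the test (adjusted p = 0.161). Ccnb1, cyclin B1, had 3.60, 3.98, 3.28 and 3.77 with both fragments, against 3.43, 3.24, 2.81 and 3.32 in VOID, with overlap (0.46 ± 0.22, adjusted p = 0.263). Ccnb2, the second B-type cyclin, did not overlap (difference 0.38), and Cdc25b, the phosphatase that starts Cdk1 activation, did (0.23).

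The kinetochore and centromere genes held 2 of the 5 calls and the largest difference. Ndc80, Nuf2, Spc24 and Spc25 encode the 4 subunits of the Ndc80 complex, which grips the ends of spindle microtubules. Ndc80 stood at 0.37, 0.51, 0.58 and 0.36 with both fragments, against -0.05, -0.36, -0.26 and -0.47 in VOID. The lowest array with both fragments was well above the highest VOID array, and the difference of 0.74 ± 0.17 (SE, n = 4 per group) was a 1.67-fold rise with an adjusted p of 0.0129, the smallest p among the members. The gene read -0.42, -0.23, 0.23 and -0.06 in D361E, -0.20, -0.21, 0.16 and 0.41 in p1-361, 0.07, -0.19, 0.58 and 0.14 in p363-549 and 0.09, 0.04, 0.16 and 0.25 in WT. WT also lay above VOID on every array, and the other 3 groups overlapped it. The Ndc80 signal came from 1 probe, at chr17:71860793-71861755 of build mm9 on the minus strand, beginning at base 1003 of the transcript, with this sequence, shown because it carries the smallest p.
Ndc80 probe: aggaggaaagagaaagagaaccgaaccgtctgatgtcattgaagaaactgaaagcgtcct

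Spc25 was at 3.99, 4.10, 3.77 and 4.33 with both fragments, against 3.43, 3.09, 3.15 and 3.45 in VOID. Again the groups did not overlap, and the rise was 0.77 ± 0.20 (SE, n = 4 per group), or 1.70-fold (adjusted p = 0.0298). In the remaining groups Spc25 was 3.32, 3.46, 3.55 and 3.96 in D361E, 3.19, 3.55, 3.41 and 3.74 in p1-361, 3.26, 3.30, 3.37 and 4.18 in p363-549 and 3.50, 3.52, 3.12 and 3.74 in WT. Replicate 4 of p363-549 stands with the arrays given both fragments, and the other 3 of its group do not. Nuf2 had the largest difference of all members, with 1.73, 1.81, 0.78 and 1.18 for both fragments, against 0.54, 0.40, 0.22 and 0.89 in VOID. Replicate 3 with both fragments fell below the highest VOID array, and the difference of 0.86 ± 0.30 missed the test (adjusted p = 0.106). The probe that stood for Nuf2 was made for a transcript record outside RefSeq. Its other, dimmer probes, both made for the RefSeq transcript, gave smaller differences of 0.63 and 0.22. Spc24 read 1.21, 1.29, 0.24 and 0.85 with both fragments, against 0.56, 0.52, -0.29 and 0.66 in VOID. It was the member that varied most over the 24 arrays (SD 0.58), and the groups overlapped (0.54 ± 0.36, adjusted p = 0.428). Of the centromere genes, Cenpe, a kinesin that carries chromosomes to the spindle equator, differed by 0.45 (adjusted p = 0.0952), Cenpa, the histone H3 variant that marks centromeres, by 0.41 and Cenpf, a large kinetochore protein, by 0.36, with overlapping groups in each.

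In cytokinesis, Ect2, the exchange factor that activates RhoA to form the contractile ring, was at 1.43, 1.82, 1.81 and 1.64 with both fragments, against 1.13, 0.80, 1.08 and 0.99 in VOID. The groups did not overlap, and Ect2 rose by 0.67 ± 0.17 (SE, n = 4 per group), 1.59-fold (adjusted p = 0.0287). It read 0.68, 0.90, 1.16 and 1.42 in D361E, 0.78, 1.03, 1.12 and 1.38 in p1-361, 0.91, 1.14, 1.46 and 1.69 in p363-549 and 1.36, 1.25, 1.22 and 1.16 in WT. All 4 WT arrays were above VOID as well. A dimmer Ect2 probe, made for another transcript and above background on 22 of 24 arrays, differed by -0.42 (adjusted p = 0.700), and with the mean of both probes the call ended. Anln, the actin-binding protein anillin of the contractile ring, differed by 0.35 with overlap.

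Among the 6 condensin and topoisomerase genes, Ncapg passed. Ncapg is a subunit of condensin I, which compacts mitotic chromosomes, and it had -2.37, -2.12, -2.37 and -2.34 with both fragments, against -2.56, -2.92, -3.04 and -2.72 in VOID. No array of either group fell within the range of the other, and the difference was 0.51 ± 0.13 (SE, n = 4 per group), 1.42-fold (adjusted p = 0.0287). Ncapg was -2.78, -2.80, -2.54 and -2.34 in D361E, -2.76, -2.63, -2.64 and -2.84 in p1-361, -2.88, -2.80, -2.75 and -2.44 in p363-549 and -2.49, -2.61, -2.67 and -2.58 in WT. VOID had a wide spread here, with replicate 1 above every array of p1-361. The condensin genes Smc4 and Ncaph did not overlap with VOID either but missed the test (0.36 with an adjusted p of 0.108, and 0.33 with 0.199). These 2 and Incenp were the members that varied least over the 24 arrays (SD 0.18, 0.20 and 0.16). Top2a, which untangles sister DNA and had the smallest difference of the 43, read 3.10, 3.27, 3.38 and 3.31 with both fragments, against 2.89, 3.20, 2.94 and 3.14 in VOID. The ranges overlapped (0.22 ± 0.17, adjusted p = 0.493).

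**Figure D3:**
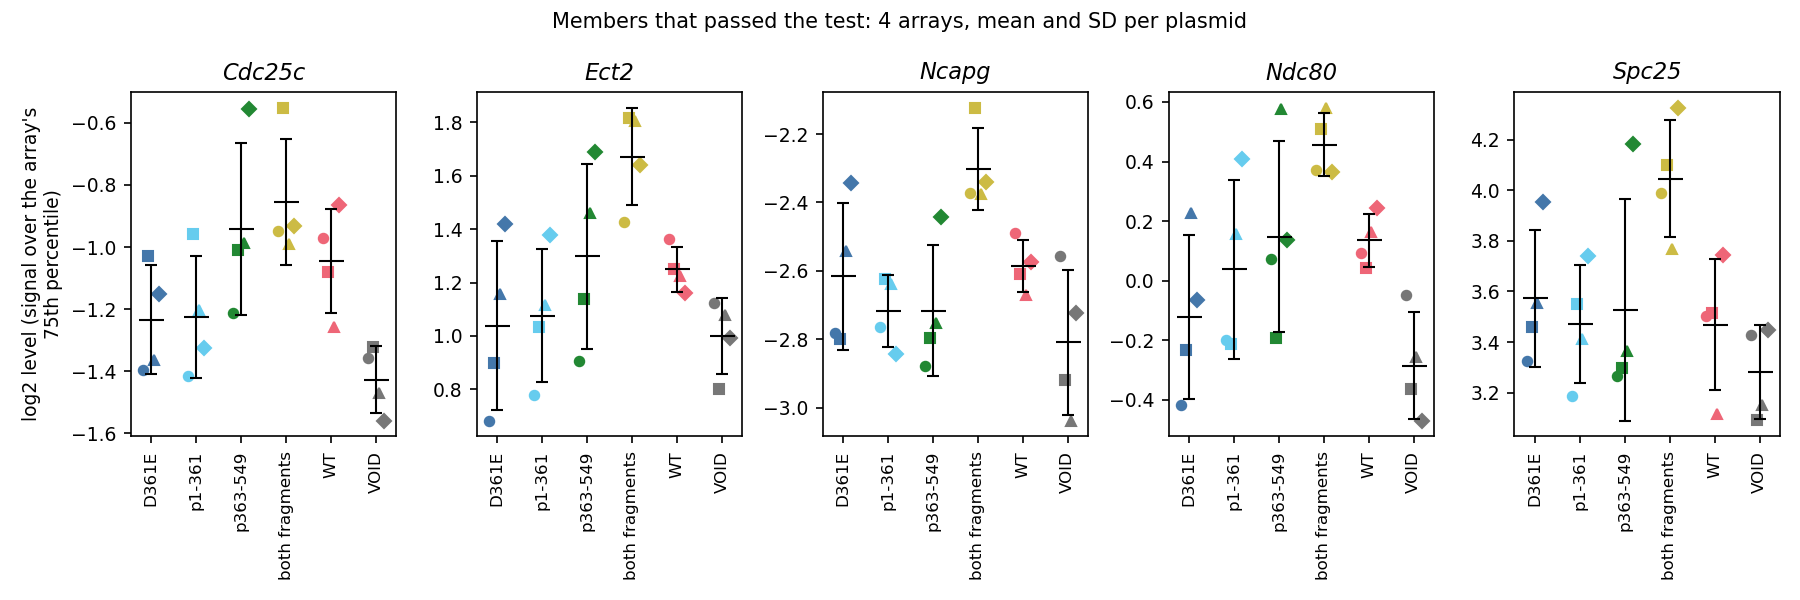
Log2 levels (signal over the 75th percentile of the array) of the 5 members that passed the test of both fragments against VOID, with 4 points per plasmid (circle, square, triangle and diamond for replicates 1, 2, 3 and 4) and the mean and SD as lines. Arrays with both fragments lie above all VOID arrays in each panel, and the means of the other plasmids lie between.

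No mitotic kinase passed the test, although the 4 tested were all higher in mean with both fragments than in VOID. Plk1, a kinase needed for spindle assembly and mitotic exit, was at 4.92, 5.30, 4.52 and 4.62 with both fragments, against 4.29, 4.59, 3.79 and 4.41 in VOID. Replicate 2 of VOID reached into the upper group, and the difference was 0.57 ± 0.24 (adjusted p = 0.201). Aurka, the kinase of spindle poles, had 3.94, 4.32, 4.09 and 3.94 with both fragments, against 3.64, 3.78, 3.53 and 3.69 in VOID. Here the groups did not overlap (0.42 ± 0.17, adjusted p = 0.186). Ttk, a checkpoint kinase, and Nek2, a centrosome kinase, both differed by 0.39 with overlap. Aurkb gave -7.55, -7.92, -7.01 and -7.20 with both fragments, against -6.08, -7.77, -7.09 and -6.75 in VOID, all at background and so without a fold.

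The spindle checkpoint genes did not pass either. Mad2l1, which binds Cdc20 to hold back anaphase, differed by 0.65 (adjusted p = 0.145), and its other probes gave 0.69 and 0.73. Bub1, the kinase that recruits the checkpoint to kinetochores, was 1.50, 1.72, 1.98 and 1.50 with both fragments, against 1.40, 1.10, 1.55 and 1.05 in VOID. Replicate 3 was the highest array in both groups, and the ranges overlapped (0.40 ± 0.21, adjusted p = 0.302). Bub3 and Bub1b, partners in the same complexes, differed by 0.35 and 0.26. In the chromosomal passenger complex, which corrects faulty attachments, Birc5 (survivin) read 5.49, 5.53, 5.00 and 5.58 with both fragments, against 5.01, 4.84, 4.66 and 5.18 in VOID. The lowest array with both fragments, replicate 3, fell among the VOID arrays (0.48 ± 0.24, adjusted p = 0.291). Cdca8 (borealin) and Incenp, its scaffold, differed by 0.41 and 0.23, with overlap.

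Of the 8 genes for spindle motors and microtubule proteins 0 passed, and 4 of them, Nusap1, Kif4, Tpx2 and Prc1, did not overlap with VOID. Kif4, a chromosome-bound kinesin, read 0.35, 0.77, 0.35 and 0.45 with both fragments, against -0.22, 0.17, -0.17 and 0.04 in VOID. The difference of 0.53 ± 0.18 came near the threshold (adjusted p = 0.0979), as did that of Nusap1, which bundles spindle microtubules (0.71 ± 0.22, adjusted p = 0.0746). Tpx2, the activator of Aurka on the spindle, had 2.88, 3.12, 2.89 and 2.84 with both fragments, against 2.07, 2.69, 2.43 and 2.61 in VOID. It differed by 0.48 ± 0.21 (adjusted p = 0.209). The kinesin genes Kif20a, Kif2c, Kif23 and Kif11 differed by 0.65, 0.44, 0.40 and 0.27, with overlap in each, and a second, dimmer Kif23 probe had the opposite sign (-0.27). Among the genes of anaphase control, Cdc20, which activates the anaphase-promoting complex, was at 4.66, 4.92, 4.31 and 5.12 with both fragments, against 4.37, 4.36, 3.88 and 4.37 in VOID. With both fragments replicate 3 alone reached into the VOID range, and the difference was 0.51 ± 0.20 (adjusted p = 0.158). Espl1 (separase), Pttg1 (securin, its inhibitor) and Ube2c (the ubiquitin-conjugating enzyme of the anaphase-promoting complex) differed by 0.59, 0.41 and 0.26, with overlap. A second, dimmer Pttg1 probe, above background on all 24 arrays, differed by 0.04.

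**Figure D4:**
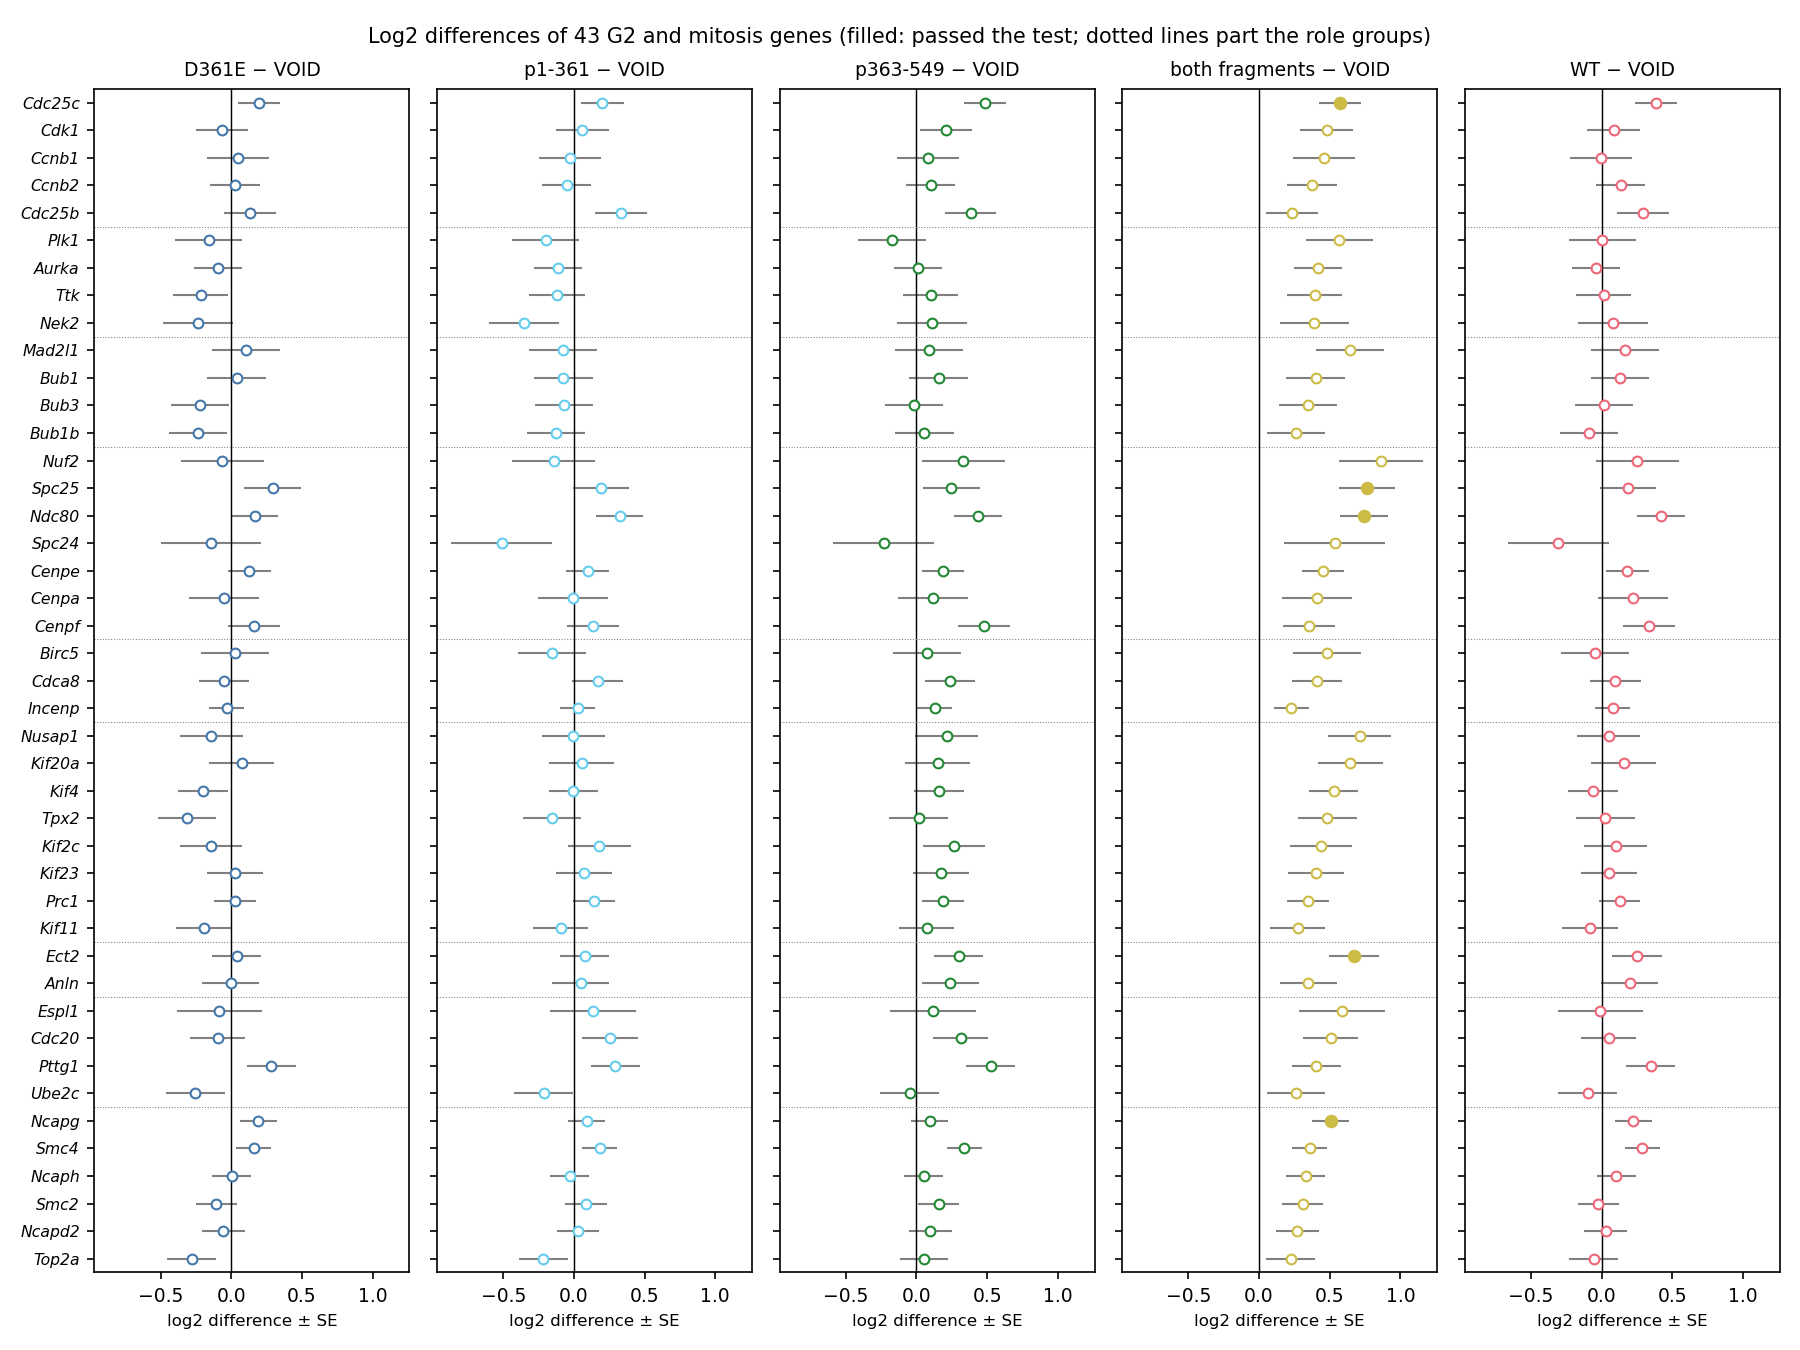
Points give the log2 difference of each of 43 members from VOID (horizontal axis, ± SE, n = 4 arrays per group), by plasmid; filled points passed limma's test and dotted lines part the roles. With both fragments all 43 points lie right of 0 and 5 are filled, and no point is filled in the other panels.

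The same shift can be seen in the median over the 43 members of the deviation of each gene from its mean over 24 arrays. It was 0.24, 0.50, 0.17 and 0.43 in the arrays with both fragments, against -0.10, -0.06, -0.20 and 0.03 in VOID. Every array with both fragments was above every VOID array. The other groups overlapped VOID, at -0.41, -0.30, -0.13 and 0.24 in D361E, -0.34, -0.01, -0.16 and 0.15 in p1-361, -0.24, 0.04, 0.02 and 0.37 in p363-549, and -0.02, 0.03, -0.27 and 0.15 in WT. Replicate 4 was the highest array of WT, D361E, p1-361, p363-549 and VOID. Replicate numbers here follow the 4 sets of 6 consecutive sample numbers, which the labels do not call batches. Replicate 4 of every group is therefore set 4. Within the sets the median difference of the members between both fragments and VOID was 0.32, 0.56, 0.46 and 0.41. Of the 43 members 39, 41, 43 and 42 were positive. Of the 6 slides 2 held both groups, and there the median difference was 0.14 and 0.32, with 28 and 40 positive. Both slides compare arrays of different sets. The first sets both-fragment replicate 3 against VOID replicate 4, and the second sets replicate 1 against VOID replicate 2. With the sets as a fixed block 24 members passed, all higher, beside 16.1% of all genes.

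**Figure D5:**
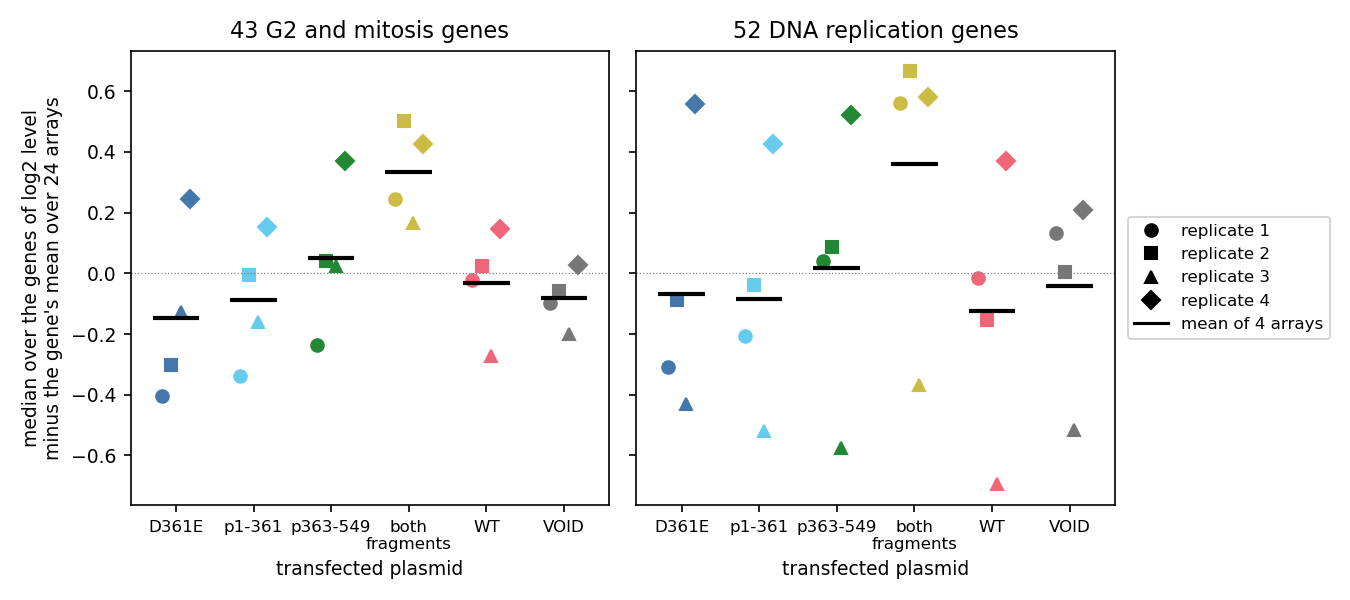
Each point is 1 array: the median over the genes of the log2 level minus its mean over 24 arrays, by plasmid, for the 43 members (left) and 52 DNA replication genes (right), with group means as lines. On the left the 4 arrays with both fragments (0.17 to 0.50) lie above the 4 VOID arrays (-0.20 to 0.03), and on the right replicate 3 is the lowest array of every group.

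Of the 13 members read by further probes, 17 such probes were tested with both fragments against VOID, of which 15 were positive and 2, those of Ect2 and Kif23, negative. The calls rest on few arrays. Ndc80 kept its call when any of the 24 arrays was left out. It was the only member that passed without both-fragment replicate 2 or VOID replicate 3, beside 2.03% and 2.88% of all genes in either direction. Without both-fragment replicate 1 or VOID replicate 2, 2 members passed, beside 2.2% and 2.91%. Without VOID replicate 4, 3 passed, beside 2.94%. Arrays with both fragments were also brighter before scaling: the 75th percentile was 1065, 1214, 846.7 and 1020 units with both fragments, against 764.5, 924.1, 665.7 and 774.5 in VOID. With that brightness as a covariate, an alternative added after the data were seen, 0 members passed, beside 2.14% of all genes. The median difference was then 0.19 and 37 of 43 were positive, with Top2a at -0.001. After normexp background correction 0 passed as well, beside 1.42% of all genes. With slide as a fixed block Ndc80 was the only call, beside 2.74%. The same held without the filter on dim probes (1.44%) and in a fit of these 8 arrays alone (1.96%). Without the 3 arrays that resembled other groups 6 passed, the same 5 and Nuf2 (0.93 ± 0.28, adjusted p = 0.0399), beside 9.58% of all genes in either direction.

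Markers of cell type moved in the same comparison. The summed level of the 14 haematopoietic markers, in multiples of the 75th percentile of the array, was 144 to 183 with both fragments, against 205 to 259 in VOID, and the summed level of the 18 markers of other cell types was 2.18 to 4.30 with both fragments, against 4.24 to 5.76 in VOID. Csf2rb2 and Csf2rb, near-identical receptor genes for cytokines whose probes may share signal, fell by 1.28 and 1.14 (adjusted p = 0.00143 and 0.00234), Lcp1, an actin-bundling protein of blood cells, rose by 0.62 (0.0474), and Cd3d fell by 1.05 (0.0120). Their part in the results for the G2 and mitosis genes was not tested.

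A further list held genes of the same pathway outside the 44. Of its 118 tested members 7 rose and 0 fell with both fragments against VOID, beside 1.95% of all genes called higher and 2.51% called lower, 108 were positive, and their median difference was 0.37. The 4 with the smallest p were Sgo1, the shugoshin that protects centromeric cohesin (0.79 ± 0.16, adjusted p = 0.00459), Cenpp, a centromere protein (1.97 ± 0.41, 0.00627), Foxm1, the transcription factor of late cell cycle genes (0.64 ± 0.15, 0.0120), and Melk, a mitotic kinase (1.45 ± 0.34, 0.0154). Foxm1 was 1.11, 1.12, 1.18 and 0.83 with both fragments, against 0.52, 0.32, 0.39 and 0.43 in VOID, without overlap. Ccna2, cyclin A2, differed by 0.49 ± 0.19 without overlap but missed the test (0.155), and Mki67, the proliferation marker, by 0.25 (0.323), Wee1, the kinase that inhibits Cdk1, by 0.40 (0.425) and Mybl2 (B-Myb) by 0.10 (0.882). Of 52 DNA replication genes 0 passed, 48 were positive and the median was 0.41, the same as for the members; their arrays with both fragments overlapped VOID, and replicate 3 was low in every group. Among 32 genes of G1 and cell cycle arrest 0 rose and 3 fell, beside the same shares of all genes: Cdkn2a, which encodes p16 and Arf (-3.30 ± 0.44, adjusted p = 0.000142), Btg2, an antiproliferative gene (-1.96 ± 0.43, 0.00984), and Gadd45g, a stress gene that inhibits Cdk1 (-1.01 ± 0.26, 0.0271). Cdkn1a (p21), the Cdk inhibitor, differed by -0.54 ± 0.23 and missed the test (0.212).

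Against full-length p65 instead of the empty plasmid, both fragments gave 42 of 43 positive differences with a median of 0.34, but 0 members passed, beside 1.06% of all genes in either direction. The exception in sign was Cdc25b (-0.06). Separation was complete for 11 members, all above WT, where 4.18% of all genes lay above. Kif4 had the smallest p: it read 0.35, 0.77, 0.35 and 0.45 with both fragments, against -0.11, -0.01, -0.34 and 0.04 in WT. Its lowest array with both fragments was far above the highest WT array, yet the difference of 0.59 ± 0.18 did not pass (adjusted p = 0.139). A raw p under 0.05 was reached by 15 of 43 members, all higher, and by 12.6% of all genes. Among the other G2 and mitosis genes Cenpp passed (1.91 ± 0.41, adjusted p = 0.0245). With the sets as a fixed block 8 members passed, beside 7.38% of all genes.

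Full-length p65 (WT) had 0 members that passed against VOID, where 0.485% of all genes passed. The median difference was 0.09, with 32 of 43 positive, and the median of all genes was -0.04. That direction depended on the processing: the median was -0.003 with 21 positive after normexp background correction, and -0.06 with 16 positive with array brightness as a covariate. WT lay above VOID on all arrays for Cdc25c, Ndc80, Ect2 and Pttg1, and below for 0 members, where 2.34% of all genes lay above. The second Pttg1 probe differed by -0.13, and of the 17 further probes of members 6 were positive. The largest difference was that of Ndc80 (0.42 ± 0.17, adjusted p = 0.672), the smallest p that of Cdc25c (0.38 ± 0.15, adjusted p = 0.611) and the lowest value that of Spc24 (-0.31 ± 0.36, adjusted p = 0.999). Spc24 stood at 0.15, -0.07, -0.47 and 0.61 in WT, against 0.56, 0.52, -0.29 and 0.66 in VOID. Replicate 3 was the lowest array of both groups, which overlapped.

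D361E gave 0 calls against VOID as well, beside 0.657% of all genes, with a median of -0.05, 19 of 43 positive and 0 raw p-values under 0.05, which 6.3% of all genes reached. Top2a had the smallest p, with 2.40, 2.70, 2.77 and 3.17 in D361E, against 2.89, 3.20, 2.94 and 3.14 in VOID. Replicate 4 of D361E reached into the VOID arrays and the difference was -0.28 ± 0.17 (adjusted p = 0.983). Spc25 had the largest positive difference (0.29 ± 0.20, adjusted p = 1) and Tpx2 the most negative (-0.32 ± 0.21, adjusted p = 1). Against WT the members were mostly lower in D361E: 39 of 43 were negative with a median of -0.14, while the median of all genes was 0.03. None passed the test, 0 reached a raw p under 0.05, and of all genes 0.0797% passed and 3.07% had such a raw p. Tpx2 led with 1.72, 1.91, 2.25 and 2.66 in D361E, against 2.34, 2.55, 2.44 and 2.57 in WT. In D361E replicates 1, 2 and 3 were below every WT array and replicate 4 above (-0.34 ± 0.21, adjusted p = 1), and a second, dimmer Tpx2 probe gave -0.03. The direction was not the same in all sets: the median of D361E against WT was -0.43, -0.33, 0.07 and 0.12 in the 4 sets of sample numbers. The shift was also smaller after normexp correction, with a median of -0.03 and 17 of 43 positive, and with brightness as a covariate, with -0.01 and 20 positive.

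The N-terminal fragment p1-361 gave 0 calls against VOID, beside 0.717% of all genes, with a median of 0.03 and 22 of 43 positive. Ndc80 had the smallest p (0.32 ± 0.17, adjusted p = 0.703), Cdc25b the largest difference (0.33 ± 0.18, adjusted p = 0.741) and Spc24 the most negative (-0.51 ± 0.36, adjusted p = 0.887). Cdc25b was 2.14, 2.76, 2.60 and 2.12 in p1-361, against 1.89, 2.09, 2.25 and 2.06 in VOID. Replicates 2 and 3 of p1-361 were above every VOID array and the other 2 were not. Against WT 0 passed, beside 0.126% of all genes, 33 of 43 were negative and the median was -0.10. After normexp correction it was 0.04 with 25 positive, the other direction, and with brightness as a covariate -0.01 with 20 positive. Nek2 had the smallest p there: it read -0.50, 0.12, -0.09 and 0.56 in p1-361, against 0.21, 0.54, 0.40 and 0.68 in WT. Replicate 4 of p1-361 lay within the WT range and the other 3 below it (-0.43 ± 0.25, adjusted p = 1). Without the 3 arrays that resembled other groups the median of p1-361 against VOID was -0.04, with 15 positive, and 0 passed. With brightness as a covariate it was -0.02, with 19 positive.

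The C-terminal fragment p363-549 had 39 of 43 members above VOID in mean and a median of 0.15, but 0 passed, beside 0.584% of all genes. Its arrays did not overlap VOID for Cdc25c, Smc2 and Smc4, all above, where 1.65% of all genes lay above. Cdc25c had the smallest p (0.49 ± 0.15, adjusted p = 0.238), and Pttg1 the largest difference. Pttg1 stood at 4.52, 5.15, 5.13 and 5.15 in p363-549, against 4.19, 4.49, 4.58 and 4.59 in VOID. Replicate 1 of p363-549 lay within the VOID range and the other 3 were well above it (0.53 ± 0.17, adjusted p = 0.299). The second Pttg1 probe did not show this, with a difference of -0.02, and of the 17 further probes of members 7 were positive. Spc24 was the most negative (-0.23 ± 0.36, adjusted p = 1). Against WT the median was 0.07, 34 of 43 were positive and 0 passed, beside 0.146% of all genes. Cdc20 had the smallest p, with 4.33, 4.68, 4.44 and 4.79 in p363-549, against 4.35, 4.39, 3.93 and 4.51 in WT. The ranges overlapped (0.26 ± 0.20, adjusted p = 1). These values moved with the arrays kept: without the 3 arrays the median against VOID was 0.03 with 28 positive, and against WT it was -0.03 with 17 positive. With brightness as a covariate it was 0.25 with 43 positive against VOID and 0.30 with 38 positive against WT, and after normexp correction 0.12 with 37 positive against WT.

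The 5 comparisons with VOID share its 4 arrays, so they are not independent of each other. Additivity asked whether the change with both fragments equals the sum of the changes with each fragment, all against VOID. The difference from additivity had a median of 0.32 over the members with 35 of 43 positive, where the median of all genes was -0.04, and 0 members passed, beside 0.212% of all genes. Plk1 had the smallest p, 0.94 ± 0.34 (adjusted p = 0.278). It was above VOID in mean with both fragments but below it with p1-361 (-0.20) and with p363-549 (-0.17). In p1-361 Plk1 read 3.92, 4.17, 3.79 and 4.41, and in p363-549 3.91, 4.42, 3.95 and 4.10, with the VOID and both-fragment values given above. Each array with both fragments exceeded every array of p1-361 and p363-549. Spc24 departed most, at 1.28 ± 0.51 (adjusted p = 0.300). Cdc25b and Pttg1 departed in the other direction (-0.48 and -0.41, adjusted p = 0.384 and 0.432), although the second Pttg1 probe gave 0.12. Without the 3 arrays Spc24 passed (1.85 ± 0.49, adjusted p = 0.0238), beside 10.6% of all genes, and the median was 0.48. With the sets as a fixed block 2 members passed, beside 5.51% of all genes. With brightness as a covariate, by contrast, the median was 0.008, 23 of 43 were positive and 0 passed. In limma's F test for any difference among the 6 groups 0 of 43 members passed, beside 2.84% of all genes, and 11 had a raw p under 0.05 (25.6%, against 13.5% of all genes), with Ndc80 the smallest (adjusted p = 0.127).

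Members differed in how they moved with each other inside groups. Deviations from the group means were compared over the 24 arrays, a description in which all points share arrays and scaling. Mad2l1, Bub3 and Cdk1 moved most with the rest (median r with the other members 0.76 for each), and the closest pair was Mad2l1 and Kif20a (r = 0.96), followed by Ttk and Top2a (0.94) and Tpx2 and Nek2 (0.94). Cenpf (-0.30), Bub1 (-0.12) and Anln (0.08) did not move with the rest, and the lowest pair was Cdc25b and Kif11 (-0.64). Of the pairs of members 54.9% had r above 0.5. The share was 34.6% for pairs of other G2 and mitosis genes and 74.7% for pairs of DNA replication genes. It was 24.6% for pairs of G1 and arrest genes and 16.1% for pairs of all genes.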

How the data were processed

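RNA from 24 samples in 6 groups of 4 was hybridised in 1 colour. Per the submitters' processing notes and the file headers, the scans were read with Agilent Feature Extraction 10.7.3.1. The deposited values are processed signal intensity on a linear scale, background-subtracted and not scaled between arrays, and the intensity values of the series table, also deposited, are identical. Quality marks of spots (other columns, well above background, outlier) are the authors' deposited marks.

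Spots with outlier marks (185 to 312 per array) were left out, spots of a probe averaged, and log2 of the deposited intensity taken minus the 75th percentile of the array. A probe was kept if every array of at least 1 group measured it well above background (19523 probes). The brightest probe stood for a gene (15059 genes). Of 39429 probes 27508 were named through a RefSeq accession and the rest as in the files. All 24 arrays entered 1 linear model that gives each group its mean, in R 4.3.3 with limma 3.58.1, statmod 1.5.0 and data.table (version 1.17.8) (18 residual and 3.06 prior degrees of freedom), 2-sided, with Benjamini-Hochberg adjustment over all genes within a comparison and a threshold of 0.05. Errors are SE in log2 units unless called SD. The model was tested on simulated data in which genes varied independently. No effect of set, slide or brightness was simulated, so that test does not bear on these.

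The 44 members, the other lists, the tests and the alternatives were chosen with earlier results of these data known. Members named in full are those that passed, the smallest p of each comparison, the extremes against VOID, the extremes of spread and a fixed set (Ccnb1, Cdk1, Plk1, Aurka, Aurkb, Bub1, Cdc20, Top2a, Birc5). Of other lists at most 4 called genes with the smallest p are named per comparison, besides Foxm1, Mybl2, Ccna2, Mki67, Cdkn1a and Wee1. Motifs were searched in RefSeq promoter windows of GRCm38.p6. Probe positions are those of the array files, in mm9. Slides come from the file headers. The alternatives tried were background correction by normexp (offset 50), normalization by quantiles, another percentile, 2 other filters, slide or set of sample numbers as a block, other rules for probes, the series table, subsets of arrays, array brightness as a covariate (added after the data were seen) and each array left out. The number of arrays limits the precision.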

Additional observations from a re-analysis of the deposited data

Results flagged for a closer look

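For 21 members named above and for the median over the 43 members, the highest or lowest array of each group of 4 was checked for a gap to the others (Dixon's ratio above its critical value). Of 132 groups checked 12 stood out. For independent groups chance gives about 1 in 20. These genes share arrays, vary together and were partly picked by their results, so the count cannot be set against that rate. All values are log2 levels.

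Replicate 3 stood out 6 times. It was low for Birc5 with both fragments, at 4.995 (the others 5.487 to 5.583), for Cdk1 in WT, at 0.781 (1.44 to 1.522), for Plk1 in WT, at 3.69 (4.441 to 4.502), for Cdc20 in VOID, at 3.882 (4.357 to 4.374), and for Spc24 in VOID, at -0.286 (0.52 to 0.656). It was high for Bub1 in p1-361, at 1.692 (0.987 to 1.087).

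Replicate 4 was high for Birc5 in D361E, at 5.562 (the others 4.691 to 4.793), for Cdc20 in D361E, at 4.642 (3.97 to 4.002), and for Spc25 in p363-549, at 4.181 (3.264 to 3.366). The last is 1 of the 3 arrays that resembled another group.

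With both fragments replicate 2 was high for Cdc25c, at -0.551 (the others -0.99 to -0.931), and for Ncapg, at -2.123 (-2.374 to -2.34), both called in that group against VOID. Pttg1 was low in p363-549 replicate 1, at 4.522 (5.134 to 5.153).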

How the results depend on the processing

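In both fragments against VOID all 43 members stayed positive when any array was left out (median 0.39 to 0.50). Then 1 to 6 passed, beside 2.03% to 7.02% of all genes in either direction. With all arrays 5 passed, beside 4.46%. The number of members that passed was 0 after normexp correction (1.42% of all genes) and with array brightness as a covariate (2.14%). It was 1 without the filter on dim probes (1.44%), with slide as a fixed block (2.74%) and in a fit of the arrays compared (1.96%). It was 24 with a fixed block for the sets of sample numbers (16.1%). That block also gave 8 calls for both fragments against WT, beside 7.38% of all genes, and 2 for additivity, beside 5.51%. In the F test it gave 18, for which the share of all genes was not recorded, so the count cannot be set against all genes. In the F test without that block 0 to 1 passed when an array was left out (1 without p363-549 replicate 4). The share of all genes was not recorded there either, so this count cannot be set against all genes. Without the 3 arrays that resembled other groups additivity had 1 call, beside 10.6% of all genes. With brightness as a covariate the median was 0.19 for both fragments against VOID, 0.30 for p363-549 against WT and 0.008 for additivity, and Top2a with both fragments turned to -0.001. The causes were not tested. The other comparisons had 0 calls in every alternative run. With single arrays left out, the median of the members changed sign in D361E against VOID (-0.18 to 0.04), p1-361 against VOID (-0.04 to 0.11) and p363-549 against WT (-0.03 to 0.17). It also changed sign in WT against VOID after normexp correction (-0.003) and with brightness as a covariate (-0.06), in p1-361 against WT after normexp correction (0.04), in p1-361 against VOID with that covariate (-0.02), with each probe on its own (-0.009) and without the 3 arrays (-0.04), and in p363-549 against WT without the 3 arrays (-0.03). Of 37 alternatives the call held in 35 for Ndc80, 28 for Cdc25c and Ncapg, 27 for Spc25 and 26 for Ect2. These tallies are generous, because 24 alternatives left out 1 array each, many from groups outside this comparison. Of the 13 other settings the call held in 11 for Ndc80, 8 for Cdc25c, Ncapg and Spc25, and 7 for Ect2. Those 13 include the series table, which is identical to the files and could not change a call. The labels give no replicate numbers that pair samples. Those used here are the numbers of the sets of sample numbers, so patterns by replicate and by set are the same. These sets were the pairing tried. Probes near background may understate differences, which was not tested.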
